A study of Mus musculus with 8 samples.

Results

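The genes described here are those carried by the mouse mitochondrial genome. They were chosen as all genes whose chromosome column in the deposited count files read MT, and 35 of the 49315 genes in the files met this rule. The 35 were 13 messages and 22 transfer RNA (tRNA) genes, of which 26 lay on the plus strand and 9 on the minus strand. The mitochondrial ribosomal RNA genes mt-Rnr1 and mt-Rnr2 had no rows among these genes and were not analysed here.

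The study profiled whole mouse hearts at embryonic day 9.5 by poly-A selected RNA-seq and asked which genes change when the transcription factor Tbx20 cannot bind TLE corepressors. There were 4 WT libraries and 4 Tbx20EH1Mut libraries, each made from a pool of 3 hearts. Tbx20EH1Mut embryos were homozygous for a pair of amino acid substitutions in the EH1 domain of Tbx20, introduced by genome editing and carried by every cell of the embryo, and the line was crossed to C57BL/6J mice. Neither genotype received a treatment, and the sources used here did not say whether the WT embryos were littermates. Mutant hearts do not loop or form chambers, so a change of genotype and a change in the tissue that was dissected cannot be told apart. Nor can fewer cells of a type be told apart from less RNA per cell in these whole-heart libraries.

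Mitochondrial DNA is a small circular genome that encodes core subunits of the respiratory chain and ATP synthase together with the tRNAs needed to translate them. Both strands are transcribed as long precursors. Most messages sit between tRNA genes, and cutting the tRNAs out of the precursor releases the messages, which are then given short poly-A tails. The plus-strand genes of the reference carry all messages but one, and the minus strand carries mt-Nd6 and a minority of the tRNAs. Mature tRNAs have no poly-A tail and are shorter than a sequencing read, so counts at a tRNA gene in a poly-A selected library may come from mature tRNA carried over or from longer or tailed RNAs that overlap the gene. Which of these the counts hold was not tested.

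The tRNA genes called between the genotypes are shown first, since their changes set minus-strand genes apart from plus-strand genes. Each sequence runs 5′ to 3′ on the strand of the gene, and capitals mark the anticodon. The known anticodon triplet of each tRNA was searched for and marked where the 5-base stem arms around it paired best. With G-T taken as a pair, all stem positions paired in 7 of the 8 genes and 4 of 5 paired in mt-Tl1. The sequences are from the GENCODE M21 transcripts of GRCm38. The first group is on the minus strand, where all 5 genes were higher in Tbx20EH1Mut. They lie at MT:3772-3842 (mt-Tq, glutamine), MT:5018-5086 (mt-Ta, alanine), MT:5089-5159 (mt-Tn, asparagine), MT:5192-5257 (mt-Tc, cysteine) and MT:15356-15422 (mt-Tp, proline).
mt-Tq: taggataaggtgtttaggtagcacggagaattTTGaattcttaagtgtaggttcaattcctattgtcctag
mt-Ta: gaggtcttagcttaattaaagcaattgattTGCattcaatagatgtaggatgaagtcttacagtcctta
mt-Tn: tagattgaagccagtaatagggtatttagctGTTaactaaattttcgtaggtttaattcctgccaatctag
mt-Tc: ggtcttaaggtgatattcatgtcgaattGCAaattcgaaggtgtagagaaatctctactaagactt
mt-Tp: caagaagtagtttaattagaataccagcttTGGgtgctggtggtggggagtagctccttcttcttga

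The second group is on the plus strand, where mt-Tv (valine, MT:1025-1093) was higher and mt-Tl1 (leucine, MT:2676-2750) and mt-Tm (methionine, MT:3845-3913) were lower in Tbx20EH1Mut.
mt-Tv: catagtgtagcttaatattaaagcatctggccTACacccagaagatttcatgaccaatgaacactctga
mt-Tl1: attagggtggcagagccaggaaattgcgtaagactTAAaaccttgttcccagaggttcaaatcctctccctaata
mt-Tm: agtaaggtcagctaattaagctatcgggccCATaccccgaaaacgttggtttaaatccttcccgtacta

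Gene counts summed to 33359322 to 49523086 per WT library and 36250675 to 38357025 per Tbx20EH1Mut library. Of the 35 mitochondrial genes, 31 passed the filter on low counts and were tested with edgeR's quasi-likelihood test, adjusted by Benjamini-Hochberg over all 17163 genes tested. The genes that did not pass were mt-Atp8, with 67 counts over the 8 libraries, mt-Ts1, with 15, and mt-Td and mt-Tk, which had 0 counts in every library, which allows up to 3 counts per library by counting error. All 4 lie inside the span copied on chromosome 1 that is described further on, which holds 11 of the genes. All 22 genes wholly outside the span were tested. The part of the copy in these low counts was not tested. At an adjusted p of at most 0.05, 6 mitochondrial genes were higher and 8 lower in Tbx20EH1Mut hearts, and 17 were not called. Over all genes tested, 14.0% were called higher and 15.3% lower. All 14 also passed the log2 fold change threshold of 0.5 in the study's methods, and all but mt-Nd2 passed the stricter threshold of 1 that the study also used. At 0.5, 12.5% of all genes were called higher and 12.1% lower. For 6 genes every mutant library lay above every WT library and for 9 below, beside 14.7% and 15.7% of all genes. Tbx20 itself was called lower, at 368 ± 11.1 CPM (counts scaled to a library total of 1000000; SD, n = 4) in WT and 267 ± 44.9 CPM in Tbx20EH1Mut, which does not check the labels since the allele is a substitution.

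The calls divided by type of gene and by strand. Of 12 messages tested, 6 were lower and none was higher. The median log2 fold change of the 12 was -0.78, beside 0.00 over all genes tested. Of 12 plus-strand tRNA genes tested, 1 was higher and 2 were lower. Of 7 minus-strand tRNA genes tested, 5 were higher and none was lower, with a median log2 fold change of 2.02. Strand here is that of the annotated gene. Whether the counting used strand was not given in the sources used here. Counts at a minus-strand gene therefore need not be RNA of the minus strand, and which strand they came from was not tested. The plot of fold changes in genome order shows the lower messages on both sides of a stretch with no calls, and 3 of the 6 higher tRNA genes (mt-Ta, mt-Tn and mt-Tc) side by side ahead of mt-Co1, with mt-Tv and mt-Tq further upstream and mt-Tp at the far end.

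**Figure D1:**
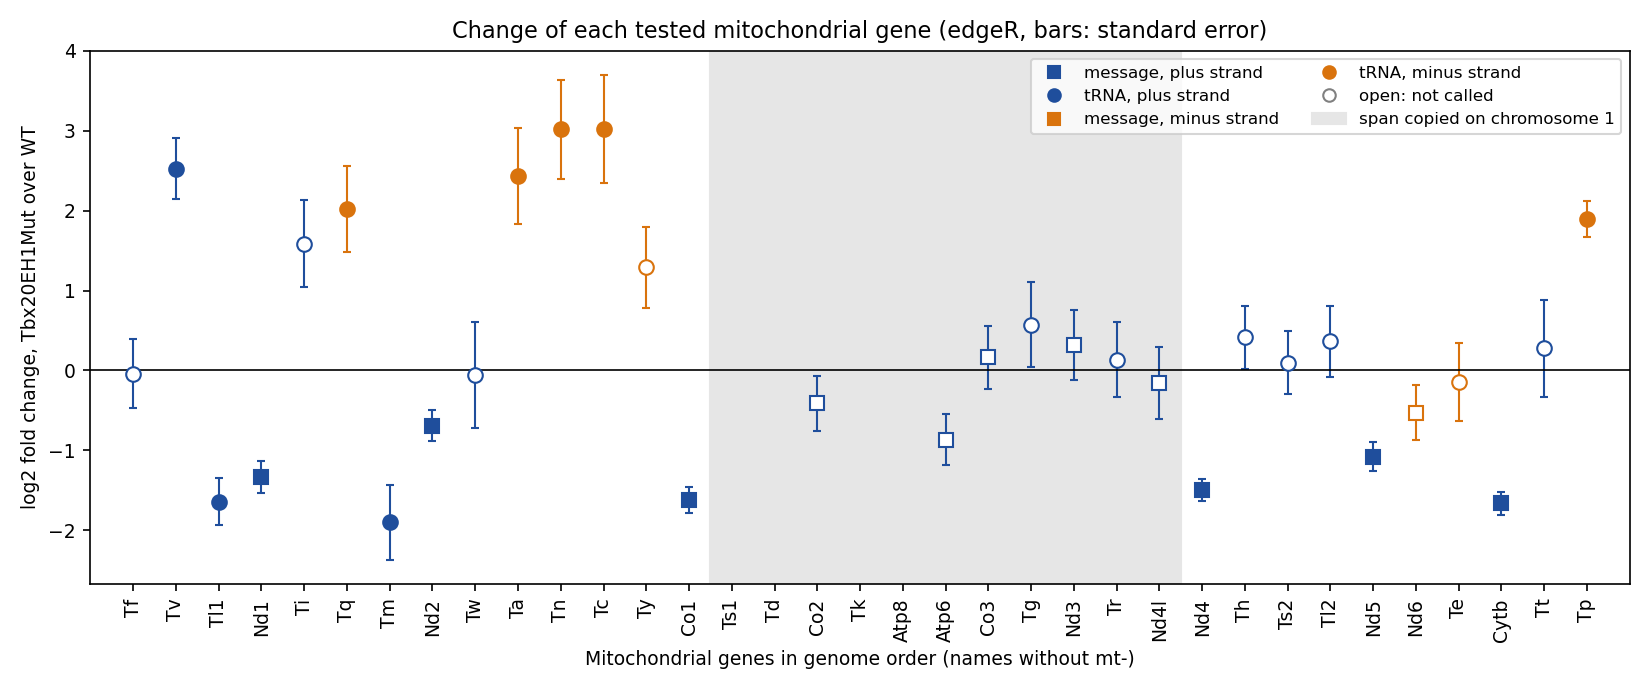
The log2 fold change of each tested mitochondrial gene (Tbx20EH1Mut over WT, vertical axis, bars: standard error) is plotted in genome order, with squares for messages, circles for tRNA genes, blue for the plus strand, orange for the minus strand and open symbols for genes not called. No gene wholly within the grey span is called, and 5 of the 7 orange circles are called higher. The copied span also takes in the end of mt-Co1 and the start of mt-Nd4, which are drawn outside the grey band.

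The counted mitochondrial genes took a smaller share of the gene counts in the mutant. This share rests on the messages wholly or partly outside the copied span described further on, since the ribosomal RNA genes had no rows. Genes inside the span gave only 0.140% to 0.438% of mitochondrial counts in WT and 0.371% to 0.929% in Tbx20EH1Mut. The mitochondrial share of all gene counts was 1.94%, 1.84%, 2.04% and 1.87% in WT libraries 1 to 4 and 0.690%, 0.752%, 0.868% and 0.746% in Tbx20EH1Mut libraries 1 to 4. The mean was 1.92% ± 0.0881 (SD, n = 4) in WT and 0.764% ± 0.0746 in Tbx20EH1Mut, 2.52-fold lower, and the genotypes did not overlap. Markers of blood moved in the same direction. All 10 genes of a list of erythroid markers were called lower in Tbx20EH1Mut, and their summed level was 1889 to 4998 CPM in WT and 364 to 1115 CPM in Tbx20EH1Mut, with no marker at 0. With the haemoglobin genes left out of the total, the mitochondrial share was 1.93% ± 0.0891 and 0.765% ± 0.0743. The summed level of 15 cardiomyocyte markers, the cell type expected of heart tissue, was 38938 to 45043 CPM in WT and 36164 to 52073 CPM in Tbx20EH1Mut, with 2 called higher and 2 lower. Markers of foregut epithelium were higher in 5 of 9 and none was lower, with a summed level of 190 to 294 CPM in WT and 655 to 886 CPM in Tbx20EH1Mut. Of 8 markers of endothelium and endocardium, 3 were higher and none was lower. Their summed level was 642 to 827 CPM in WT and 833 to 913 CPM in Tbx20EH1Mut. Over all genes tested, 14.0% were called higher and 15.3% lower, and the cardiomyocyte markers were near these shares at 13.3% each way. The part of these cell types in the mitochondrial values was not tested.

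The message of complex III on this genome, mt-Cytb (cytochrome b, MT:14145-15288), had the smallest adjusted p of the mitochondrial genes. It stood at 4148, 3534, 4244 and 3792 CPM in WT and at 1044, 1246, 1485 and 1197 CPM in Tbx20EH1Mut, so that every mutant library lay below every WT library. The log2 fold change was -1.66 (SE 0.14, adjusted p = 8.85e-05, edgeR).

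Of the complex IV messages, mt-Co1 (MT:5328-6872), which encodes the catalytic subunit of cytochrome c oxidase, was lower as well. Its level was 3824, 5435, 5756 and 5284 CPM in WT and 1673, 1937, 1413 and 1568 CPM in Tbx20EH1Mut. WT library 1 was the lowest of its genotype here, and still above every mutant library. The log2 fold change was -1.62 (SE 0.17, adjusted p = 0.00021, edgeR).

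Complex I receives 7 subunits from this genome, and 4 of their messages were called lower. mt-Nd1 (MT:2751-3707) stood at 5055, 3173, 4360 and 4011 CPM in WT and at 1291, 1520, 2167 and 1615 CPM in Tbx20EH1Mut, a log2 fold change of -1.33 (SE 0.20, adjusted p = 0.00136, edgeR). mt-Nd4 (MT:10167-11544) stood at 1619, 1148, 1421 and 1264 CPM in WT and at 453, 477, 519 and 484 CPM in Tbx20EH1Mut. Its log2 fold change was -1.50 (SE 0.13, adjusted p = 0.000108, edgeR), with little spread among the mutant libraries. mt-Nd5 (MT:11742-13565) stood at 1027, 1783, 1362 and 1231 CPM in WT and at 583, 569, 800 and 609 CPM in Tbx20EH1Mut, a log2 fold change of -1.08 (SE 0.19, adjusted p = 0.00304, edgeR). All of these genotypes lay apart.

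The smallest of the called decreases was that of mt-Nd2 (MT:3914-4951). It stood at 1994, 1569, 1911 and 1585 CPM in WT and at 824, 966, 1544 and 1039 CPM in Tbx20EH1Mut. The highest mutant library, 3, came close to the lowest WT library. The log2 fold change was -0.69 (SE 0.19, adjusted p = 0.0254, edgeR). The call was lost in 4 of the 8 fits that each left out 1 library, at an adjusted p of 0.0692 without WT library 3 and of 0.0621, 0.0604 and 0.0733 without Tbx20EH1Mut library 1, 2 and 4.

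The decreases were not of 1 size. Within the summed counts of the 7 messages that lie wholly or partly outside a span copied on chromosome 1, the share of mt-Nd2 was 8.78% to 10.3% in WT and 12.9% to 16.9% in Tbx20EH1Mut. The share of mt-Cytb moved the other way, from 20.4% to 21.4% in WT to 16.3% to 17.4% in Tbx20EH1Mut. The genotypes lay apart for these 2 messages and overlapped for the other 5. No p is given for these shares, which are parts of the same total.

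The complex I message read from the other strand, mt-Nd6 (MT:13552-14070), was not called. It stood at 1679, 665, 938 and 883 CPM in WT and at 533, 453, 1186 and 716 CPM in Tbx20EH1Mut. The genotypes overlapped, also without WT library 1 and mutant library 3, the highest of each genotype, since mutant library 4 lay above WT library 2. The log2 fold change was -0.53 (SE 0.34, adjusted p = 0.261, edgeR), and with single libraries left out it ran from -0.87 to -0.20 with no call. Relative to plus-strand messages, mt-Nd6 gave 94.6, 39.9, 49.1 and 51.3 counts per 1000 in WT and 90.3, 67.3, 148 and 109 counts per 1000 in Tbx20EH1Mut. The means were 58.7 ± 24.4 and 104 ± 34.2 (SD, n = 4), and the genotypes overlapped through WT library 1. Without that library the ratio of the means was 2.22, against 1.77 with it, and the genotypes lay apart. mt-Nd6 and mt-Nd5 overlap by 14 bases on opposite strands. The sources used here did not say whether the counting used strand, so reads of these genes cannot be told apart where mt-Nd5 RNA runs on past its gene.

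The other 6 messages (mt-Co2, mt-Atp8, mt-Atp6, mt-Co3, mt-Nd3 and mt-Nd4l) were far below the rest in both genotypes. Per kilobase of gene, these 6 had mean levels of 1.38 to 72.6 CPM in WT and 0.464 to 90.2 CPM in Tbx20EH1Mut, on the same scale where the other 7 ranged from 741 to 4336 CPM in WT and from 351 to 1722 CPM in Tbx20EH1Mut. They lie next to each other, within MT:6390-11042. That span matches a run of 7 pseudogenes on the minus strand of chromosome 1 (chr1:24611535-24616197, GRCm38), with the same order and nearly the same spacing.

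The copies were close to exact. mt-Co2 matched Gm28661 at 100% over 681 bases, mt-Atp6 matched Gm10925 at 100% over 678 bases, mt-Co3 matched Gm28437 at 100% over 783 bases and mt-Nd4l matched Gm10222 at 100% over 294 bases. mt-Nd3 matched Gm28438 at 99.71% over 345 bases. Of mt-Nd4, the first 876 of 1378 bases matched Gm28439 at 100%, and of mt-Co1 the last 483 of 1545 bases matched Gm29216 at 99.793%. mt-Atp8, the lowest of the 6, had only 43 of its 204 bases in an annotated copy at 99% identity. Per kilobase of its bases without an annotated copy, its level was 1.75 ± 0.775 CPM in WT and 0.588 ± 0.19 CPM in Tbx20EH1Mut. Most of mt-Atp8 lies between the parts copied from mt-Co2 and mt-Atp6. That gap is 233 bases in both the mitochondrial genome and chromosome 1, and its sequence on chromosome 1 was not compared. Of the more abundant messages, mt-Nd1, mt-Nd6 and mt-Cytb had no copy among the annotated transcripts at 95% identity or above. Copies at that identity covered 510 of 1038 bases of mt-Nd2, 954 of 1824 of mt-Nd5 and all 1545 of mt-Co1. How reads that fit both places were counted was not given in the sources used here, and the part of the copies in these low counts was not tested.

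A stretch of 80 bases at the start of the copied end of mt-Co1 (MT:6390-6469, plus strand) shows how little separates the sequences. Capitals mark the bases that differ from mt-Co1 in Gm29216, the copy in the chromosome 1 run, and in Gm13340, a full-length copy on chromosome 2 (chr2:22588103-22589647, minus strand). All are from GENCODE M21 transcripts.
mt-Co1: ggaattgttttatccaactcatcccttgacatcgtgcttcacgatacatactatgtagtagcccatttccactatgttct
Gm29216: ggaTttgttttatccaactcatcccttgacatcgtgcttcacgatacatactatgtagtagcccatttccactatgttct
Gm13340: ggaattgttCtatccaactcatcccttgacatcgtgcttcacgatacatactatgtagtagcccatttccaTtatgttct

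Gm29216 differed at 1 of these 80 bases, which was also its only difference over the 483 aligned, and Gm13340 at 2 of the 80. The 7 copies on chromosome 1 were counted too, at sums of 361 to 728 counts per library, against 228017 to 957707 counts for the plus-strand messages. Of 11 annotated copies at 95% identity or above, 10 were tested and 1, Gm28439, was called, beside 15.3% of all genes lower. It was lower in Tbx20EH1Mut, with 25, 36, 50 and 36 counts in WT and 5, 13, 8 and 6 counts in Tbx20EH1Mut (log2 fold change -1.88, SE 0.41, adjusted p = 0.00918, edgeR). Other copies of lower messages were not called, among them Gm29216 (copy of mt-Co1, log2 fold change -0.01, adjusted p = 0.981), Gm13340 (copy of mt-Co1, -0.64, adjusted p = 0.138) and Gm13339 (copy of mt-Nd2, 1.18, adjusted p = 0.115, edgeR).

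**Figure D2:**
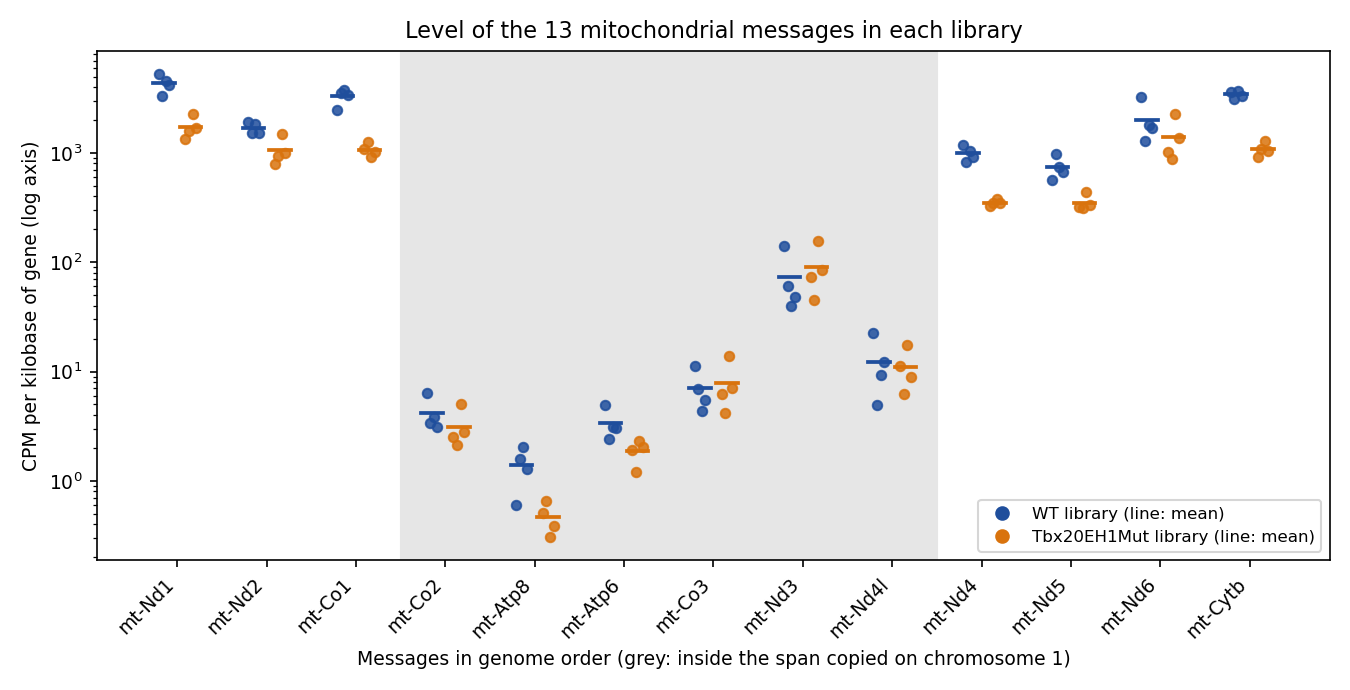
The level of each of the 13 messages is plotted per library in CPM per kilobase of gene on a log axis, in genome order, with blue points for WT, orange points for Tbx20EH1Mut and lines at the means. The 6 messages in the grey span lie at mean levels of 1.38 to 72.6 in WT. The 7 wholly or partly outside it lie at 741 to 4336, and the genotypes lie apart for 6 of those 7.

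With its counts divided by its uncopied length alone, mt-Nd4 had 2715 ± 406 CPM per kilobase in WT and 963 ± 54.7 in Tbx20EH1Mut, in place of 989 ± 148 and 351 ± 19.9 over the whole gene (SD, n = 4). On this scale the order of mean levels in WT was mt-Co1 (4778 ± 806), mt-Nd1 (4336 ± 818), mt-Cytb (3435 ± 286), mt-Nd4, mt-Nd6 (2006 ± 850), mt-Nd2 (1700 ± 212) and mt-Nd5 (741 ± 175). Neighbours differed by less than the larger of their SDs at mt-Co1 and mt-Nd1, at mt-Nd4 and mt-Nd6 and at mt-Nd6 and mt-Nd2. In Tbx20EH1Mut the order was mt-Nd1 (1722 ± 388), mt-Co1 (1552 ± 208), mt-Nd6 (1392 ± 633), mt-Cytb (1087 ± 160), mt-Nd2 (1053 ± 302), mt-Nd4 and mt-Nd5 (351 ± 59.2), and of these neighbours only mt-Nd4 and mt-Nd5 differed by more than the larger SD.

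None of the 5 tested messages inside the copied span was called. mt-Atp6, the channel subunit of ATP synthase, came nearest, at 3.40, 1.65, 2.13 and 2.05 CPM in WT and 1.29, 0.823, 1.56 and 1.38 CPM in Tbx20EH1Mut. The genotypes lay apart, with a log2 fold change of -0.86 (SE 0.32, adjusted p = 0.0632, edgeR). The other ATP synthase message, mt-Atp8, was at 0.121, 0.326, 0.418 and 0.262 CPM in WT and 0.104, 0.133, 0.0625 and 0.0795 CPM in Tbx20EH1Mut, too few counts to test. Of the complex IV messages in the span, mt-Co2 was at 2.12 to 4.37 CPM in WT and 1.46 to 3.47 CPM in Tbx20EH1Mut (log2 fold change -0.41, adjusted p = 0.388, edgeR). mt-Co3 was at 3.39 to 8.86 and 3.27 to 10.8 CPM (0.16, adjusted p = 0.776). Of the complex I messages, mt-Nd3 was at 13.8 to 49.3 and 15.8 to 54.5 CPM (0.32, adjusted p = 0.612), and mt-Nd4l at 1.47 to 6.62 and 1.86 to 5.16 CPM (-0.15, adjusted p = 0.822, edgeR). For mt-Co2, mt-Atp6, mt-Co3, mt-Nd3 and mt-Nd4l, WT library 1 was the highest WT library, and for all of these mutant library 3 was the highest mutant library.

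Of the 7 tested tRNA genes on the minus strand, 5 were higher, and mt-Ty and mt-Te were not called. mt-Tn, mt-Tc and mt-Ta belong to a cluster of neighbouring tRNA genes between mt-Nd2 and mt-Co1, in which mt-Tn and mt-Tc are 32 bases apart, around the origin where synthesis of the light strand of mitochondrial DNA begins. mt-Tn stood at 24.3, 4.97, 6.12 and 7.51 CPM in WT and at 42.2, 46.2, 180 and 76.5 CPM in Tbx20EH1Mut. WT library 1 and mutant library 3 were each far above the rest of their genotype, and the genotypes still did not overlap. The log2 fold change was 3.02 (SE 0.62, adjusted p = 0.00646, edgeR), 8.10-fold, and it was 3.79 without WT library 1 and 2.37 without mutant library 3, called in both.

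mt-Tc followed the same libraries, at 16.6, 3.03, 4.46 and 3.60 CPM in WT and 25.6, 25.4, 122 and 49.2 CPM in Tbx20EH1Mut. Its log2 fold change was 3.02 (SE 0.68, adjusted p = 0.00983, edgeR), 3.90 without WT library 1 and 2.28 without mutant library 3. mt-Ta was at 10.1, 2.10, 4.46 and 2.68 CPM in WT and 14.2, 14.7, 57.3 and 17.7 CPM in Tbx20EH1Mut. It had a log2 fold change of 2.43 (SE 0.60, adjusted p = 0.0141, edgeR), 3.06 without WT library 1 and 1.69 without mutant library 3. The genotypes lay apart for both genes. The fourth minus-strand member of the cluster, mt-Ty, was not called, at 0.349 to 0.941 CPM in WT and 0.690 to 2.94 CPM in Tbx20EH1Mut (log2 fold change 1.29, adjusted p = 0.0805, edgeR). The cluster's plus-strand member, mt-Tw, was at 0.279 to 1.37 and 0.106 to 1.16 CPM (-0.05, adjusted p = 0.96).

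The minus-strand genes of this cluster resemble a stretch of a nuclear gene. A transcript of Cep295, a centriole protein gene, matched mt-Ta at 89.831% over 59 bases, mt-Tn at 91.549% over 71, mt-Tc at 84.127% over 63 and mt-Ty at 88.333% over 60. Outside the cluster it matched mt-Tl1 at 93.548% over 62 bases. Cep295 itself was at 30.2 ± 6.96 CPM in WT and 22.7 ± 3.85 CPM in Tbx20EH1Mut and was not called (log2 fold change -0.41, adjusted p = 0.109, edgeR).

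mt-Tp, the last gene of the genome, had the highest mean count of the tRNA genes. It stood at 32.9, 14.2, 26.1 and 20.03 CPM in WT and at 78.5, 83.2, 100 and 85.1 CPM in Tbx20EH1Mut, with a log2 fold change of 1.90 (SE 0.23, adjusted p = 0.000505, edgeR). Leaving out any 1 library gave log2 fold changes of 1.73 to 2.11, all called. mt-Tq was lower in level, at 1.73, 0.896, 0.717 and 0.502 CPM in WT and 2.56, 2.39, 8.35 and 2.20 CPM in Tbx20EH1Mut. Its log2 fold change was 2.02 (SE 0.53, adjusted p = 0.0197, edgeR), and 1.33 without mutant library 3. The call was lost without WT library 3 (adjusted p = 0.0613) and without WT library 4 (adjusted p = 0.0587). The genotypes lay apart for both mt-Tp and mt-Tq.

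mt-Te, which adjoins mt-Nd6 and precedes it when the minus strand is read 5′ to 3′, ranked 3 by mean count after mt-Tp and mt-Tn and was not called. It stood at 52.7, 21.4, 32.9 and 21.2 CPM in WT and at 16.6, 12.6, 64.0 and 22.9 CPM in Tbx20EH1Mut (log2 fold change -0.14, SE 0.49, adjusted p = 0.846, edgeR). The genotypes overlapped in full. Its direction was not stable, at 0.20 without WT library 1 and -0.88 without mutant library 3.

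**Figure D3:**
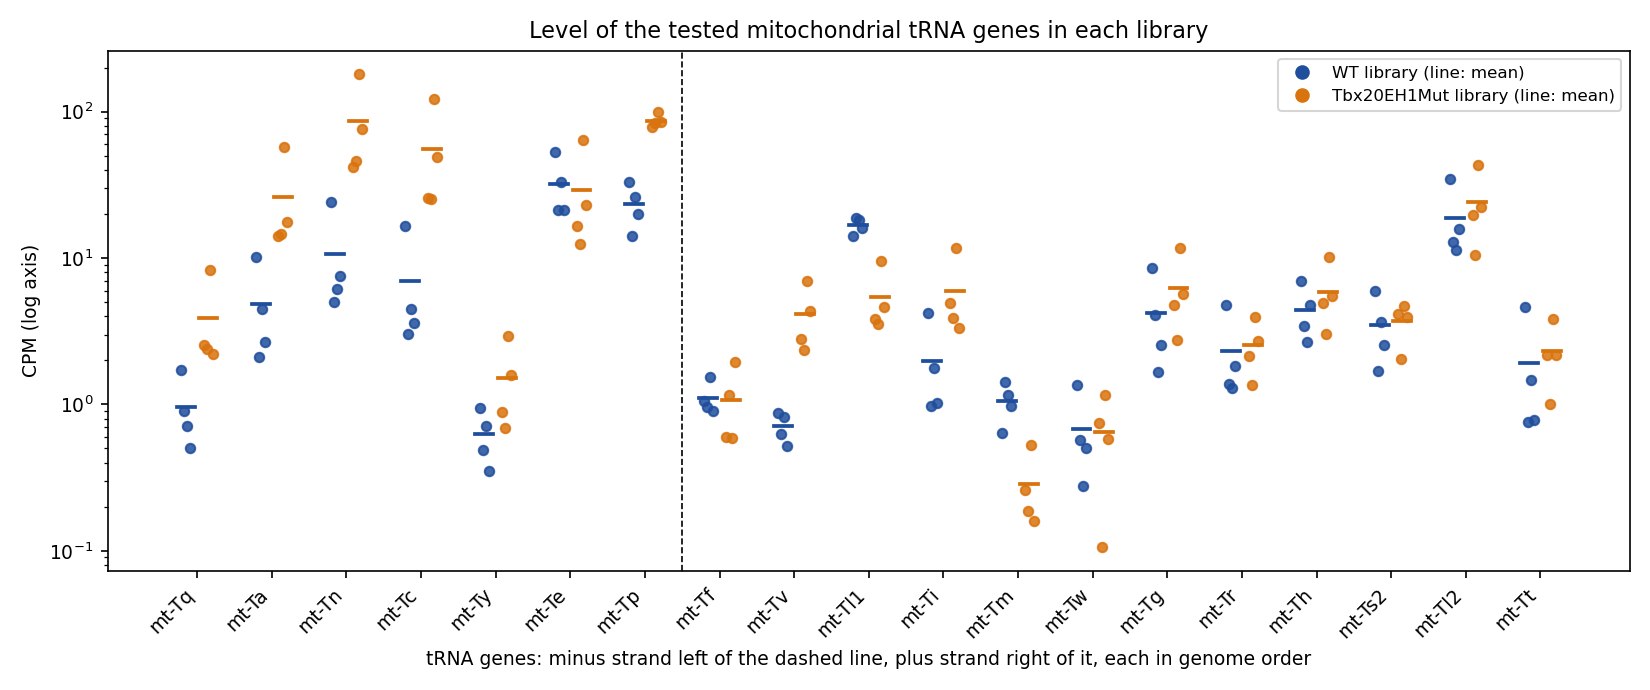
The level of the 19 tested tRNA genes is plotted per library in CPM on a log axis, minus-strand genes left of the dashed line and plus-strand genes right of it, with blue points for WT, orange points for Tbx20EH1Mut and lines at the means. The genotypes lie apart upward for mt-Tq, mt-Ta, mt-Tn, mt-Tc, mt-Tp and mt-Tv and downward for mt-Tl1 and mt-Tm.

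On the plus strand the called tRNA genes went in both directions. mt-Tv, which lies between the ribosomal RNA genes, stood at 0.880, 0.631, 0.817 and 0.524 CPM in WT and at 2.80, 2.34, 7.0 and 4.32 CPM in Tbx20EH1Mut (log2 fold change 2.53, SE 0.39, adjusted p = 0.00163, edgeR). All mutant libraries lay above all WT libraries. mt-Tl1 ends at the base before mt-Nd1 begins, and stood at 14.2, 18.7, 18.1 and 16.1 CPM in WT and at 3.83, 3.56, 9.53 and 4.66 CPM in Tbx20EH1Mut (-1.64, SE 0.30, adjusted p = 0.00371, edgeR). mt-Tm ends at the base before mt-Nd2, and stood at 0.637, 1.43, 1.16 and 0.982 CPM in WT and at 0.259, 0.186, 0.531 and 0.159 CPM in Tbx20EH1Mut (-1.90, SE 0.47, adjusted p = 0.0148, edgeR). The genotypes lay apart for both. Adjoining a lower message did not go with a lower tRNA gene in general. mt-Tl2 before mt-Nd5 (log2 fold change 0.37, adjusted p = 0.556), mt-Tt after mt-Cytb (0.28, adjusted p = 0.758) and mt-Th after mt-Nd4 (0.41, adjusted p = 0.442, edgeR) were not called. mt-Tv, mt-Tl1 and mt-Tm were called in every fit that left out 1 library.

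mt-Ti, which overlaps mt-Nd1 by 2 bases and mt-Tq by 3, was not called with all libraries and the settings used here, and was called without WT library 1 (log2 fold change 2.23, adjusted p = 0.00711, edgeR) and in 7 other alternatives. It stood at 4.19, 0.978, 1.77 and 1.03 CPM in WT and at 4.90, 3.88, 11.7 and 3.31 CPM in Tbx20EH1Mut (log2 fold change 1.59, SE 0.54, adjusted p = 0.0512, edgeR). The genotypes overlapped through WT library 1. The 11 tested tRNA genes that were not called had log2 fold changes from -0.14 to 1.59, with 8 above 0.

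Summed over genes, the tRNA share of mitochondrial counts was 1.16%, 0.542%, 0.601% and 0.573% in WT and 3.47%, 2.93%, 6.53% and 4.13% in Tbx20EH1Mut. The means were 0.718% ± 0.294 and 4.27% ± 1.59 (SD, n = 4), 5.94-fold higher in the mutant, and the genotypes did not overlap. Both parts of this ratio moved. The mean tRNA count per library was 2.15-fold higher in Tbx20EH1Mut and the mean mitochondrial count 2.94-fold lower. Minus-strand tRNA counts were 3.07-fold higher and plus-strand message counts 3.20-fold lower. Plus-strand tRNA counts were 2432 ± 316 in WT and 2200.5 ± 941 in Tbx20EH1Mut and overlapped. None of these counts was scaled to depth, and total gene counts averaged 1.17-fold higher in WT. As a share of all gene counts, the mitochondrial counts were 2.52-fold lower in Tbx20EH1Mut. The minus-strand tRNA genes gave 7.86, 2.82, 3.95 and 3.25 counts per 1000 plus-strand message counts in WT and 30.6, 27.5, 66.7 and 39.0 in Tbx20EH1Mut. The ratio of the means was 9.16, 12.2 without WT library 1, 7.23 without mutant library 3 and 9.67 without both, and the genotypes lay apart in each case. For plus-strand tRNA genes the same measure was 4.96, 2.84, 2.39 and 2.80 in WT and 8.64, 4.73, 13.5 and 8.77 in Tbx20EH1Mut, and the genotypes overlapped. The minus-strand genes gave 49.8% to 62.3% of tRNA counts in WT and 78.0% to 85.3% in Tbx20EH1Mut. WT library 1 was the highest WT library for 16 of the 19 tested tRNA genes, and mutant library 3 the highest mutant library for 18 of 19. Some nuclear genes shared this pattern. Atp5e, a nuclear ATP synthase gene, was at 472 CPM in WT library 1 against 131 to 228 in the others. It was at 818 CPM in mutant library 3 against 298 to 423. Others, such as Atp5b, did not share it.

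**Figure D4:**
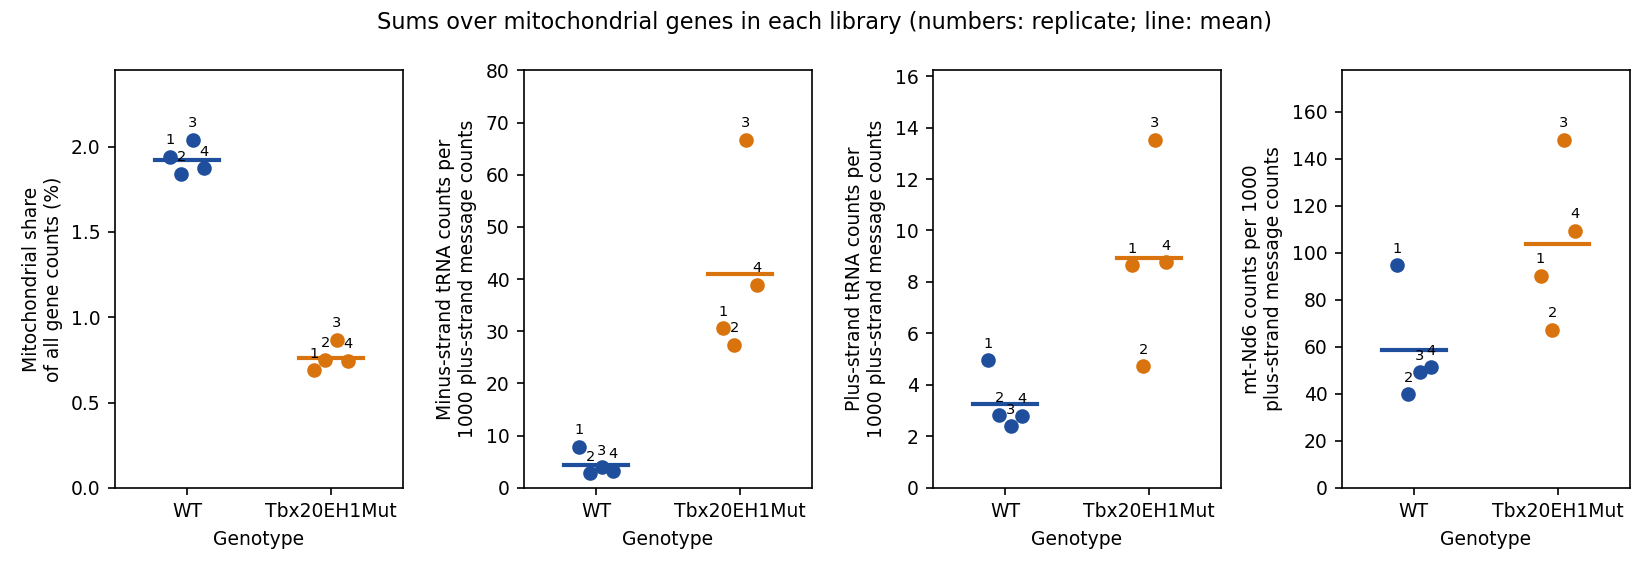
Sums over mitochondrial genes are plotted for each library, with the replicate number beside each point and lines at the means, as the share of all gene counts in percent and as minus-strand tRNA, plus-strand tRNA and mt-Nd6 counts per 1000 plus-strand message counts. The first 2 panels show genotypes that lie apart in opposite directions, at means of 1.92 and 0.764 and of 4.47 and 40.9, and the last 2 show overlap.

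The genes that maintain, transcribe, process and translate the mitochondrial genome are nuclear, and lists of them were examined beside it. Of 12 genes of mitochondrial transcription, 2 were called lower and none higher, beside 15.3% of all genes lower. These were Polrmt, the RNA polymerase of mitochondria, and Tfb2m, the factor that opens its promoters. Polrmt was at 30.3 ± 4.94 CPM in WT and 16.6 ± 2.26 CPM in Tbx20EH1Mut (log2 fold change -0.87, adjusted p = 0.00321, edgeR), and Tfb2m at 13.7 ± 2.03 and 8.91 ± 0.299 CPM (-0.62, adjusted p = 0.0114, edgeR). Tfam, which packages mitochondrial DNA and starts transcription, was not called, at 80.4 ± 9.22 and 91.1 ± 3.38 CPM (0.18, adjusted p = 0.23), nor was Mterf3, at 26.8 ± 4.53 and 31.5 ± 5.05 CPM (0.23, adjusted p = 0.285). The median of the list was 0.21, above the 0.00 of all genes.

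Of 23 genes of mitochondrial RNA processing, tailing and decay, 13 were called lower and 1 higher, with a median log2 fold change of -0.41. Over all genes tested, 15.3% were called lower and 14.0% higher. They included Elac2, which cuts the 3′ ends of tRNAs from the precursor, at 42.6 ± 11.8 CPM in WT and 18.7 ± 2.54 CPM in Tbx20EH1Mut (-1.19, adjusted p = 0.00244, edgeR). Ptcd3, a protein of the small mitochondrial ribosomal subunit, was at 85.1 ± 18.9 and 41.9 ± 13.8 CPM (-1.02, adjusted p = 0.0146), and Tbrg4, an RNA-binding protein of mitochondria, at 83.7 ± 11.8 and 41.96 ± 6.65 CPM (-1.0, adjusted p = 0.0014, edgeR). The genotypes overlapped for Ptcd3 and lay apart for Tbrg4. Lrpprc, which binds and stabilises mitochondrial messages, was at 144 ± 6.33 and 109 ± 5.08 CPM (-0.41, adjusted p = 0.0107, edgeR). Mtpap, the poly-A polymerase of mitochondria, was at 28.2 ± 2.29 and 28.7 ± 3.69 CPM and was not called (0.02, adjusted p = 0.899). The gene called higher was Hsd17b10, a subunit of the enzyme that cuts tRNA 5′ ends, at 87.5 ± 14.0 and 116 ± 6.01 CPM (0.41, adjusted p = 0.0381, edgeR).

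Of 22 genes for mitochondrial tRNA charging, 12 were lower and none higher, beside 15.3% of all genes lower and 14.0% higher. The median log2 fold change of the list was -0.56. The largest changes among the called genes were those of Mars2 (methionine), at 19.3 ± 2.39 and 8.66 ± 0.801 CPM (-1.16, adjusted p = 0.000531), Aars2 (alanine), at 33.6 ± 6.10 and 18.2 ± 5.88 CPM (-0.89, adjusted p = 0.0224), and Cars2 (cysteine), at 20.7 ± 4.04 and 11.5 ± 3.67 CPM (-0.84, adjusted p = 0.0268, edgeR). The enzymes for the other higher tRNAs were looked up after their values were seen. For glutamine, whose tRNA is first charged with glutamate and then amidated, Ears2 (log2 fold change -0.47, adjusted p = 0.0223) and Qrsl1 (-0.82, adjusted p = 0.00245, edgeR) were called lower. The other amidating subunits, Gatb (-0.14, adjusted p = 0.423) and Gatc (-0.34, adjusted p = 0.0568), were not called. Vars2 (valine, log2 fold change -0.57, adjusted p = 0.075), Nars2 (asparagine, 0.06, adjusted p = 0.725) and Pars2 (proline, -0.07, adjusted p = 0.797) were not called. Lars2 (leucine), the most abundant gene of the list, was at 846 ± 440 and 1566 ± 409 CPM and was not called (0.89, adjusted p = 0.139, edgeR).

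**Figure D5:**
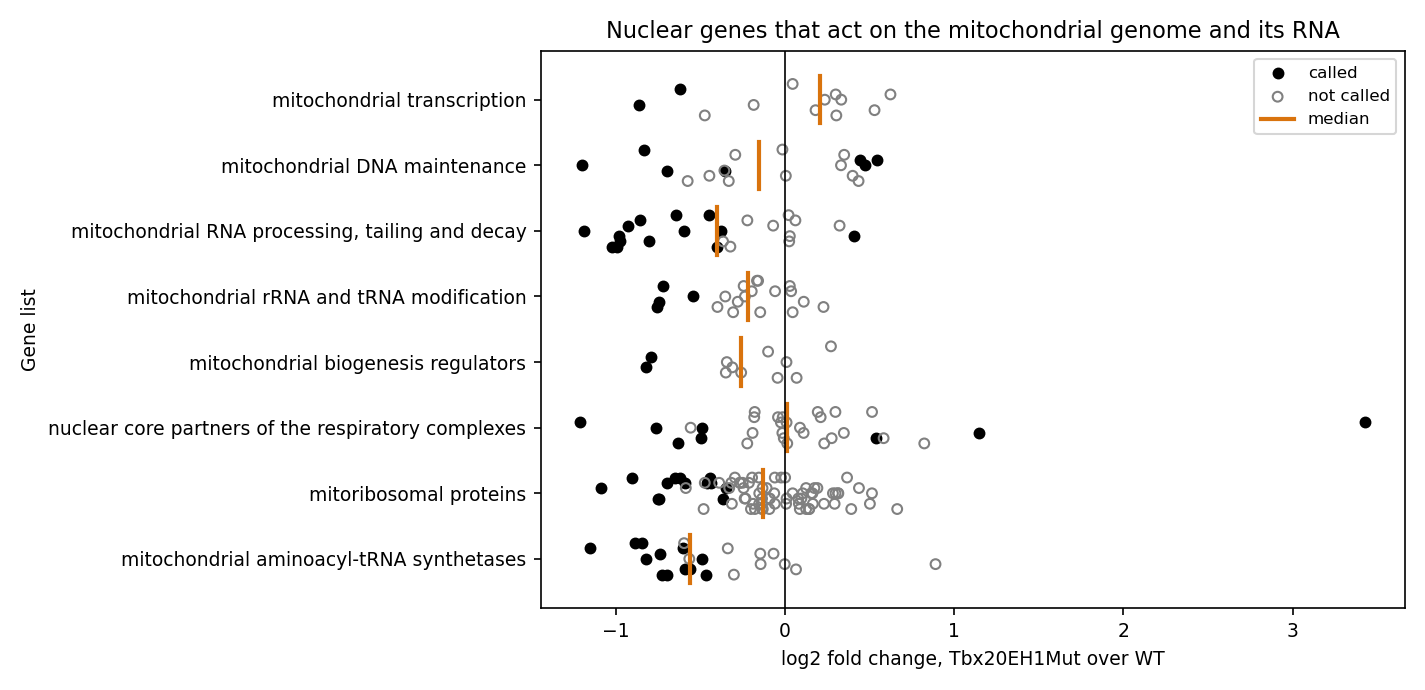
Each circle is a tested nuclear gene of 1 of 8 lists, placed by its log2 fold change (Tbx20EH1Mut over WT, horizontal axis), filled where called, with an orange line at the list's median. The lists of RNA processing and of aminoacyl-tRNA synthetases have 13 of 23 and 12 of 22 genes called lower, beside 15.3% of all genes.

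The other lists had smaller shares of genes called lower, 22.2% or less, beside 15.3% of all genes. Of 18 genes of mitochondrial DNA maintenance, 3 were higher and 4 lower, the largest changes being those of the DNA ligase Lig3 (37.4 ± 15.5 and 16.3 ± 2.99 CPM, -1.20, adjusted p = 0.00888), the nuclease-helicase Dna2 (55.4 ± 3.60 and 31.1 ± 3.08 CPM, -0.83, adjusted p = 0.000721) and Atad3a (112 ± 10.4 and 68.8 ± 11.3 CPM, -0.70, adjusted p = 0.00521, edgeR). Of 20 genes that modify mitochondrial ribosomal and transfer RNA, 4 were lower, among them the methyltransferases Mrm3 (-0.76, adjusted p = 0.0084) and Nsun4 (-0.74, adjusted p = 0.00132) and the tRNA-modifying enzyme Mto1 (-0.72, adjusted p = 0.00482, edgeR). Of 78 mitoribosomal protein genes, 13 were lower and none higher, with a median of -0.13, and the largest changes were those of Mrps18b (-1.09, adjusted p = 0.0263), Mrpl38 (-0.90, adjusted p = 0.00136) and Mrps27 (-0.75, adjusted p = 0.00219, edgeR). The genotypes overlapped for Mrps18b.

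Of 11 regulators of mitochondrial biogenesis, 2 were lower, the coactivator Pprc1 (72.5 ± 18.1 and 41.0 ± 2.19 CPM, -0.82, adjusted p = 0.0051) and the nuclear receptor Esrra (74.0 ± 9.51 and 42.7 ± 8.01 CPM, -0.79, adjusted p = 0.00536, edgeR). Ppargc1a, the best known of these coactivators, was at 41.4 ± 2.92 and 40.1 ± 10.9 CPM and was not called (-0.04, adjusted p = 0.865). Of 31 nuclear partners of the mitochondrially encoded subunits, 3 were higher and 5 lower, with a median of 0.01. These were 9.7% and 16.1% of the list, beside 14.0% of all genes higher and 15.3% lower, so the list as a whole did not stand out. The partner of mt-Cytb in complex III, Cyc1 (cytochrome c1), was lower, at 360 ± 35.3 and 155 ± 41.4 CPM (-1.21, adjusted p = 0.0018, edgeR). The complex IV subunits Cox4i2, at 11.9 ± 3.27 and 128 ± 43.2 CPM (3.43, adjusted p = 4.6e-05), and Cox7a1, at 75.5 ± 33.5 and 167 ± 80.7 CPM (1.15, adjusted p = 0.0449, edgeR), were higher. The genotypes lay apart for Cox4i2 and overlapped for Cox7a1 through WT library 1. These CPM values are means ± SD over 4 libraries of each genotype, WT first.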

How the data were processed

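Poly-A selected RNA of 8 heart pools was sequenced, and the submitters' processing notes name Trimmomatic 0.36, STAR 2.5.2b and GRCm38 (mm10). The authors deposited raw read counts per gene and library. The counter, its use of strand and its treatment of reads that fit several places are not given in the sources used here. Symbols, transcripts and sequences came from GENCODE M21 and matched 48970 of 49315 gene IDs. Counts of all genes were filtered with filterByExpr, scaled by TMM and tested with edgeR 4.0.16 (quasi-likelihood, genotype only, Benjamini-Hochberg, R 4.3.3), and calls were made at adjusted p values up to 0.05. CPM values use the TMM-scaled library sizes. Shares of counts use the plain sums, and their 4 libraries per genotype are described without a p. Copies of mitochondrial genes were sought among the annotated transcripts with BLAST 2.17.0. A copy was listed at 95% identity over 200 bases. The fit was tested on simulated data for this comparison (17352 genes). It called 48 and 49 of 50 genes changed by -1 and 1 on the log2 scale. At -2 and at 2 it called 50 of 50, with 10 false calls in all. These values are given by size of change only. Recovery of genes with few counts, such as mt-Tm with 234 in all, was not tested. Nor was that of genes with wide spread, such as mt-Tc at 6.92 ± 6.48 CPM in WT (SD, n = 4).

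All messages, the called tRNA genes and the 3 tRNA genes with the highest mean count were named. In each nuclear list, the 3 called genes with the largest change were named, together with 7 regulators. Further tRNA genes and nuclear genes were named outside these rules, among them mt-Ti, mt-Ty, Hsd17b10 and Lars2. Members and lists were chosen with earlier results of these data known. Each pool came from separate embryos. No 2 libraries agreed within counting noise, so all 8 count. Alternatives were DESeq2 1.42.0, limma-voom 3.58.1, other scalings and filters, a replicate block and the omission of each library.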

Additional observations from a re-analysis of the deposited data

Results flagged for a closer look

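In 6 of 68 groups of 4 libraries checked, 1 library stood far from the others, where chance alone gives about 3.4. WT library 1 was the highest WT library for mt-Tn, at 24.3 CPM against 4.97 to 7.51 in the others, for mt-Tc, at 16.6 CPM against 3.03 to 4.46, and for mt-Tr, at 4.79 CPM against 1.29 to 1.83. Its tRNA share of mitochondrial counts was 1.16% against 0.542% to 0.601%. Tbx20EH1Mut library 3 was the highest mutant library for mt-Tq, at 8.35 CPM against 2.20 to 2.56, and for mt-Ta, at 57.3 CPM against 14.2 to 17.7. With both libraries left out, an alternative chosen after seeing the data, 7 mitochondrial genes were called higher and 9 lower.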

How the results depend on the processing

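All 65 alternative values of the counts of called mitochondrial genes, the mitochondrial share, the tRNA share and mt-Nd6 relative to the messages stayed within 1.5 times the count or kept their direction. Over the scalings, filters and tools, 6 to 8 genes were called higher and 8 to 9 lower. Leaving out 1 library gave 5 to 7 higher and 7 to 9 lower. Of the named genes, mt-Atp6 became called at an adjusted p of 0.0435 with library size alone, 0.029 with DESeq2 and 0.0491 with at least 10 counts in every library. mt-Ti became called higher with upper-quartile scaling, DESeq2, limma-voom, no filter, at least 10 counts in every library and the replicate block (adjusted p of 0.00867 to 0.0496), without WT library 1 (0.00711) and without that library and Tbx20EH1Mut library 3 (0.00307), and mt-Ty with DESeq2 (0.0442). mt-Atp8, not tested with all libraries, was called lower without WT library 1 (log2 fold change -1.79, adjusted p = 0.027, edgeR) and without both libraries (-1.63, adjusted p = 0.0376). When 1 library was left out, genes that were not called changed sign, with log2 fold changes of -0.25 to 0.49 for mt-Co3, -0.0876 to 0.86 for mt-Nd3, -0.46 to 0.30 for mt-Nd4l, -0.47 to 0.51 for mt-Tw and -0.88 to 0.20 for mt-Te. With WT library 1 and Tbx20EH1Mut library 3 both left out, mt-Nd4l was at 0.00575 and mt-Tw at 0.11, and mt-Tw was at 0.0167 with upper-quartile scaling. The cause was not tested. Same-numbered libraries did not deviate together (correlations of -0.27 to 0.34), and with a replicate block in the fit 7 mitochondrial genes were called higher and 8 lower, and 3945 of all genes in place of 5024. Over all genes, 3001 to 6586 were called without 1 library. The planned ribosomal RNA share could not be computed and was not run. Genes with few counts, such as mt-Tm with 234 in all, limit what depth can show.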
